A study of Mus musculus with 6 samples.

Results

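The protein kinase C genes are a family of serine and threonine kinases, and 7 of them (Prkca, Prkcb, Prkcd, Prkce, Prkch, Prkci and Prkcz) were followed here in mouse liver, out of 12393 genes named on the arrays. They were taken as all probe sets, the groups of short probes that report 1 transcript, annotated to 1 of these symbols alone, with no filter on signal. This gave 12 of 22626 probe sets, 1 each for Prkcd and Prkch and 2 for each of the other genes. Liver RNA came from 6 male mice aged 12 weeks, 3 carrying the chromogranin A (Chga) knockout described by Mahapatra and colleagues and 3 wild-type controls, with 1 array per sample. The labels name no treatment, feeding state or genetic background, and no cell type restriction of the knockout. Each difference is knockout minus wild type on the log2(signal + 16) scale, on which changes of dim probe sets come out too small, and the p-values reflect variation among these 6 samples alone.

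Protein kinase C enzymes fall into 3 classes by what activates them. Conventional enzymes (encoded by Prkca and Prkcb) respond to calcium and diacylglycerol, calcium-independent enzymes (Prkcd, Prkce and Prkch) to diacylglycerol alone, and atypical enzymes (Prkci and Prkcz) to neither, relying on protein partners. In liver they are known for carrying signals of hormones that act through phospholipase C and for restraining insulin signalling when diacylglycerol accumulates, while atypical enzymes act downstream of insulin and in cell polarity. Pancreastatin, a peptide cut from chromogranin A, has been linked to conventional protein kinase C in liver, so the comparison asks whether transcripts of these kinases differ when its precursor gene is disrupted. Transcript levels do not measure kinase activity or membrane translocation.

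None of the 12 probe sets differed between knockout and wild-type liver at the adjusted threshold (limma, adjusted p between 0.715 and 0.993), and 0 had an unadjusted p below 0.05. Over all 22626 probe sets, 0.186% passed the adjusted threshold of 0.05 and 7.94% had an unadjusted p below 0.05. By their log2 difference, 10 of the 12 probe sets were lower in knockout liver, against 50.3% of all probe sets, under the deposited scaling. The count of 10 was the same under quantile normalization and median centring. Under the deposited scaling the median log2 difference of the 12 was -0.32, where that of all probe sets was -0.0031. The median standard error was 0.35 for the 12 and 0.36 for all probe sets. Probe sets of the same gene read the same RNA, so the 12 are not independent, and the direction of the family as a whole was not tested.

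**Figure D1:**
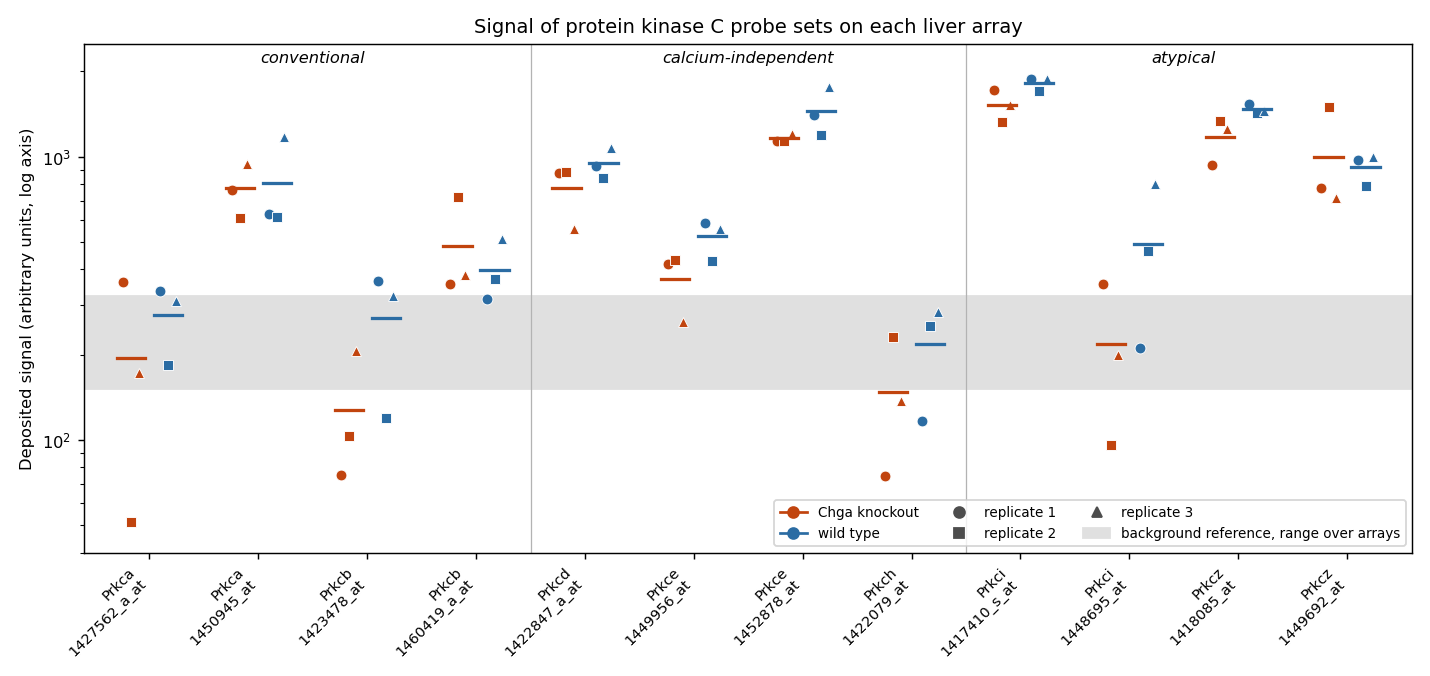
Deposited signal (arbitrary units, log axis) of the 12 protein kinase C probe sets on each of the 6 arrays, with points for single arrays, bars for group means and a grey band for the background reference over the arrays. Knockout and wild-type points overlap for every probe set but Prkcz 1418085_at, and points below the band occur for the 4 dimmest probe sets.

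Chga itself could not serve as a check of the labels, because its only probe set was dim, at the 17.9th percentile of mean signal. It read 61.5, 44.5 and 231 on the knockout arrays and 167, 185 and 42.5 on the wild-type arrays. All 10 hepatocyte markers were above background on all 6 arrays, where background is set per array by 27 dim bacterial control probe sets at their 95th percentile, from 151 to 322. The share of probe sets above it ran from 64.4% in knockout replicate 2, where the reference was highest, to 76.9% in wild-type replicate 3. The 5′ to 3′ signal ratio of the GAPDH controls lay between 1.23 and 1.29 on all arrays. For actin the ratio was far lower, at 0.351 to 0.366, so its 5′ signal was weaker than its 3′ signal on every array. Pearson's r across probe sets, which are not independent, was 0.933 to 0.948 within groups and 0.933 to 0.943 across groups.

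Among the conventional enzymes, Prkca encodes PKC alpha, the isoform usually named for calcium-dependent signalling in hepatocytes. Its brighter probe set, 1450945_at, read 766, 608 and 946 in knockout replicates 1 to 3 and 630, 613 and 1178 in wild-type replicates 1 to 3. The groups lay on top of each other, with the highest reading in wild type and the lowest in knockout. On the log2 scale the groups differed by -0.016 ± 0.32 (SE, n = 3 per group, limma adjusted p = 0.993), and its 95% confidence interval ran from -0.73 to 0.69. Knockout signal between 0.604 and 1.62 times that of wild type is thus compatible with these arrays. The sign of this difference turned without wild-type replicate 3 (0.29) and without knockout replicate 2 (0.14).

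The second Prkca probe set, 1427562_a_at, was dim. It read 361, 51.4 and 173 on the knockout arrays and 336, 184 and 309 on the wild-type arrays, and was above background in 1 of 3 knockout and 3 of 3 wild-type arrays. Knockout replicate 2 was the lowest reading, while knockout replicate 1 was the highest of all. The log2 difference of -0.75 ± 0.68 (SE, n = 3 per group, limma adjusted p = 0.827) was -0.090 without knockout replicate 2 and -1.33 without knockout replicate 1.

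Prkcb encodes PKC beta, which is abundant in B cells and other leukocytes. Probe set 1460419_a_at read 355, 721 and 381 in knockout and 316, 369 and 511 in wild type, above background on all arrays. Its log2 difference of 0.23 ± 0.42 (SE, n = 3 per group, limma adjusted p = 0.929) came with its highest reading in knockout replicate 2, and was -0.083 without that array. Probe set 1423478_at read 75.0, 104 and 206 in knockout and 366, 120 and 322 in wild type, above background in 1 and 2 of 3 arrays. Wild-type replicate 2 lay among the knockout arrays, and the log2 difference of -0.95 ± 0.63 did not pass (limma adjusted p = 0.761). It ran from -1.42 without wild-type replicate 2 to -0.67 without knockout replicate 1.

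The probe sets of Prkcb thus pointed in opposite directions. Their changes lay 1.18 apart on the log2 scale. Whether probe sets of 1 gene truly disagree cannot be settled here: an exact permutation test of 3 against 3 arrays cannot go below p = 0.1, and over the 5 genes with 2 probe sets it gave 0.2 to 0.7 (two-sided). The mean of both Prkcb probe sets gave -0.36 ± 0.43 (limma adjusted p = 0.885).

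Of the calcium-independent enzymes, Prkcd encodes PKC delta, known in liver for roles in lipid accumulation and cell death. Its probe set 1422847_a_at read 879, 885 and 556 in knockout and 929, 840 and 1077 in wild type. Knockout replicate 3 stood below the other 5 arrays, which lay between 840 and 1077. The log2 difference was -0.31 ± 0.27 (SE, n = 3 per group, limma adjusted p = 0.815) with a 95% interval from -0.90 to 0.28, and it was -0.096 without knockout replicate 3.

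Prkce encodes PKC epsilon, the isoform most often tied to diacylglycerol and impaired insulin receptor signalling in fatty liver. Probe set 1452878_at read 1134, 1139 and 1208 in knockout and 1402, 1193 and 1763 in wild type. The knockout arrays were close together, with an SD of 41.3 against 288 in wild type, and wild-type replicate 2 fell within their range. On the log2 scale the groups differed by -0.30 ± 0.20 (SE, n = 3 per group, limma adjusted p = 0.756), with a 95% interval from -0.74 to 0.13. Without wild-type replicate 3 the difference was -0.16.

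The other Prkce probe set, 1449956_at, read 418, 432 and 262 in knockout and 585, 429 and 557 in wild type. Knockout replicate 2 exceeded wild-type replicate 2 by a small margin, and all other knockout readings lay below all wild-type ones. Its log2 difference of -0.50 ± 0.38 (limma adjusted p = 0.794) had the same sign as that of 1452878_at, and was -0.28 without knockout replicate 3. Over both probe sets the Prkce mean was -0.40 ± 0.23 (limma adjusted p = 0.727).

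Prkch encodes PKC eta, best known in epithelia and lymphocytes. Its only probe set, 1422079_at, was above background in 0 of 3 knockout and 2 of 3 wild-type arrays. It read 74.3, 230 and 137 in knockout and 117, 252 and 283 in wild type, with wild-type replicate 1 below 2 of the knockout arrays. The log2 difference of -0.55 ± 0.62 (SE, n = 3 per group, limma adjusted p = 0.865) had a 95% interval from -1.92 to 0.82, and ran from -0.91 without wild-type replicate 1 to -0.18 without knockout replicate 1. With no knockout array above background, the lower end of the interval is not a firm limit on how much lower the transcript could be in knockout.

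**Figure D2:**
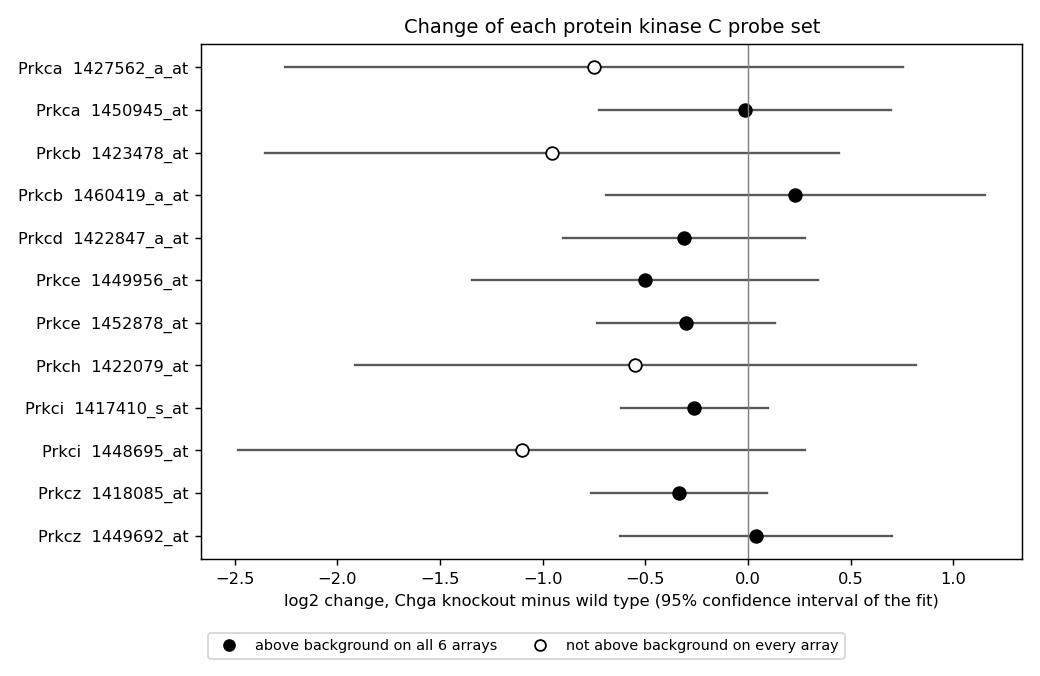
Log2 difference between knockout and wild type for each of the 12 probe sets, with the 95% confidence interval of the fit as a line. Every interval includes 0; filled points are the 8 probe sets above background on all 6 arrays and open points the other 4, whose intervals are wider.

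The atypical gene Prkci encodes PKC iota, the partner of the PAR polarity proteins. Probe set 1417410_s_at, whose suffix marks a design that may match more than 1 transcript, read 1723, 1325 and 1522 in knockout and 1873, 1705 and 1883 in wild type. Only knockout replicate 1 reached above the lowest wild-type array. The log2 difference was -0.26 ± 0.16 (SE, n = 3 per group, limma adjusted p = 0.744), the smallest standard error of the 12, and its 95% interval ran from -0.62 to 0.097. A fall beyond 1.54-fold or a rise beyond 1.07-fold lies outside that interval. The difference ran from -0.35 without knockout replicate 1 to -0.17 without knockout replicate 2.

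The second Prkci probe set, 1448695_at, had the largest difference of the family and also one of the widest intervals. It read 357, 96.2 and 200 in knockout and 212, 465 and 801 in wild type, and was above background in 2 of 3 arrays of each group. Wild-type replicate 1 lay between the knockout readings. The log2 difference was -1.10 ± 0.62 (SE, n = 3 per group, unadjusted p = 0.106, limma adjusted p = 0.715), and was -1.59 without wild-type replicate 1 and -0.66 without knockout replicate 2. Averaged over both probe sets, Prkci stood at -0.68 ± 0.34 (limma adjusted p = 0.685).

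Prkcz encodes PKC zeta, which acts downstream of insulin and of sphingolipid signals. Probe set 1418085_at was the only one of the 12 whose groups did not overlap, as was the case for 13.4% of all probe sets. It read 935, 1342 and 1252 in knockout and 1536, 1428 and 1446 in wild type. The wild-type arrays were close together, with an SD of 57.6, while knockout replicate 1 was well below the other arrays. The log2 difference was -0.33 ± 0.19 (SE, n = 3 per group, unadjusted p = 0.114, limma adjusted p = 0.724), and -0.18 without knockout replicate 1.

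The other Prkcz probe set, 1449692_at, for which the annotation lists no accession, read 776, 1497 and 714 in knockout and 972, 788 and 999 in wild type. Knockout replicate 2 was far above the rest, and the other knockout arrays were the lowest. The log2 difference was 0.040 ± 0.30 (limma adjusted p = 0.987), turning to -0.29 without knockout replicate 2.

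Dimmer probe sets of the family had larger differences and larger errors. The 8 with the higher mean signal over all 6 arrays, all of them above background on every array, had log2 differences from -0.50 to 0.23 and a median standard error of 0.28. The 4 dimmest, at or below the 36.8th percentile of mean signal, had differences from -1.10 to -0.55 and a median standard error of 0.63. With a pseudocount 16 times as large, which weighs dim readings less, the difference of Prkci 1448695_at was -0.62, of Prkcb 1423478_at -0.43, of Prkca 1427562_a_at -0.29 and of Prkch -0.23. By array, a knockout array was the lowest of the 6 for 11 of the 12 probe sets and a wild-type array the highest for 9, against 52.3% and 47.6% of all probe sets. These counts restate the direction given above on the same probe sets. Wild-type replicate 3 was the highest for 6, and this array also had the highest share of all probe sets above background. How often it was the highest over all probe sets was not counted, and a link was not tested.

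**Figure D3:**
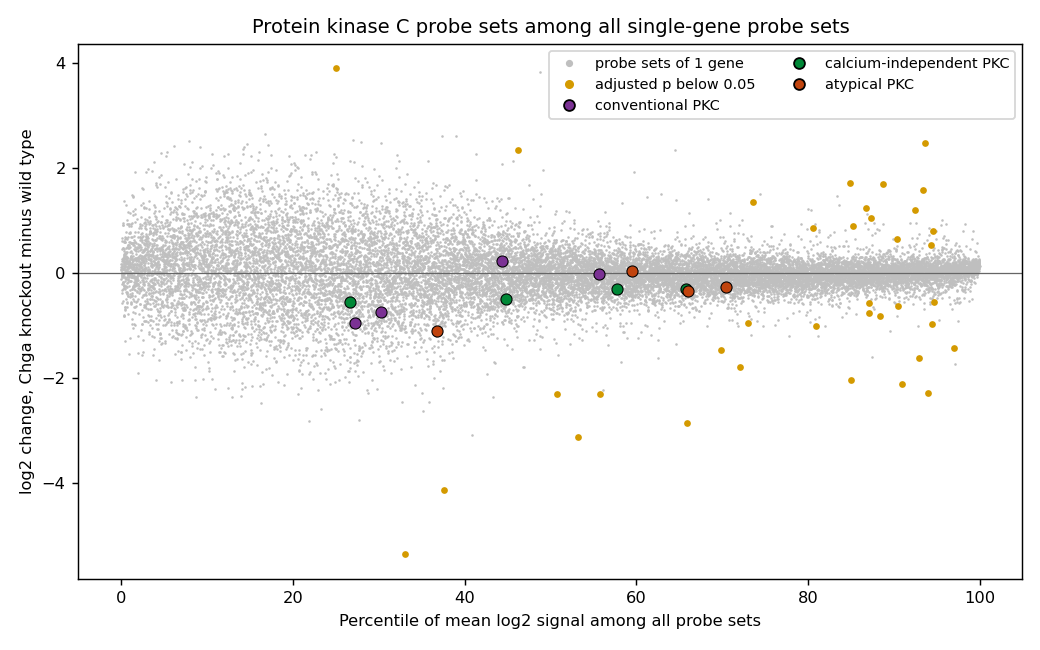
Log2 difference of each single-gene probe set against the percentile of its mean signal among all probe sets, with those past the adjusted threshold in yellow. The 12 protein kinase C probe sets, coloured by class, lie between the 26.7th and 70.4th percentiles and within the grey cloud of other probe sets.

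Protein kinase C genes differ between liver cell types, so markers of other cells were read beside them. In bulk RNA, fewer cells of a type and less RNA per cell cannot be told apart. Of 11 measured Kupffer cell and macrophage markers 9 were lower in knockout liver (median log2 difference -0.21), and their summed signal ran from 19788 to 31558 in knockout and from 24949 to 32403 in wild type. Of 9 stellate cell markers 8 were lower (median -0.24), with sums of 23442 to 29749 against 26958 to 35776. Of all genes 50.4% were lower. The sums weigh bright genes most, Csf1r among the macrophage and Dcn among the stellate cell markers. The macrophage markers ran from Cd68 (-1.40 ± 0.70) and C1qc (-0.37 ± 0.23), both without overlap of the groups, to the Kupffer cell marker Clec4f (0.0017 ± 0.20) and Marco (0.19 ± 0.56), which was above background on 0 of 6 arrays. Cd68 read 403, 49.3 and 507 in knockout and 708, 652 and 530 in wild type. Its low reading in knockout replicate 2 was not above background. Only 1 of 10 lymphocyte markers and 0 of 4 cholangiocyte markers were above background on all arrays, with sums of 3843 to 5328 against 4366 to 5256 and of 602 to 658 against 666 to 909. Hepatocyte markers were higher in 9 of 10 cases (median 0.098), and endothelial markers in 4 of 10 (median -0.028). None of the 54 markers passed the adjusted threshold and 3 had an unadjusted p below 0.05, against 8.16% of all genes. These were the stellate cell genes Col3a1 (-0.61 ± 0.18) and Reln (-0.48 ± 0.16) and the B cell gene Cd79a (1.43 ± 0.63), which was above background on 1 of 6 arrays. Other B cell markers lay on the opposite side, Cd79b at -1.20 ± 0.89 and Ms4a1 at -0.10 ± 0.45. The part of these cells in the protein kinase C readings was not tested.

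The rest of the pathway was read from 7 lists holding 94 genes, 66 of them measured, each gene by its brightest probe set. None of the 66 passed, where 0.202% of all genes did, and 4 had an unadjusted p below 0.05 (3 higher, 1 lower), a share of 6.06% against 8.16% of all genes. The lists had a joint median log2 difference of 0.052, with 40 genes higher in knockout. Read the same way, 6 of the 7 kinases were lower with a median of -0.30. Of all genes 50.4% were lower, with a median of -0.0034. The 6 kinases included Prkca at -0.016 and the dim Prkch.

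The remaining protein kinase C genes and the related or downstream PKN and protein kinase D kinases were measured for 4 of 8 genes, 3 of them higher in knockout. Only 1 of the 4 was above background on all 6 arrays, and that gene, Prkd3, was lower. Prkcq, which encodes PKC theta of T cells and muscle, was above background on 0 of 6 arrays, reading 147, 126 and 80.1 in knockout and 29.7, 33.8 and 157 in wild type. Prkd3, a protein kinase D that protein kinase C activates, stood at -0.18 ± 0.11 by its brightest probe set (limma adjusted p = 0.748).

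Upstream of the diacylglycerol-dependent enzymes, Gq-class subunits couple receptors to phospholipase C, which releases diacylglycerol and the calcium-mobilising messenger IP3. Of 12 measured genes of this step 0 passed and 7 were higher. Gnaq, the Gq alpha subunit, was dim and read by 1 probe set, above background in 0 of 3 knockout and 2 of 3 wild-type arrays. It read 111, 79.8 and 141 in knockout and 355, 93.5 and 540 in wild type. Wild-type replicate 2 lay with the knockout arrays, and the log2 difference of -1.19 ± 0.68 did not pass (limma adjusted p = 0.722), running from -1.87 without wild-type replicate 2 to -0.70 without wild-type replicate 3. Its close relative Gna11 was bright and stood at 0.088 ± 0.14. Plce1, a phospholipase C controlled by small GTPases, was at -0.27 ± 0.20.

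Calcium release and reuptake genes were measured in 5 of 12 cases, 4 of them higher. Atp2a2, the calcium pump of the endoplasmic reticulum, read 13266, 12917 and 11697 in knockout and 11437, 10398 and 10294 in wild type, without overlap. Its difference of 0.24 ± 0.09 had an unadjusted p of 0.0283 and a limma adjusted p of 0.562, and its other probe sets lay between -0.043 and 0.27. The IP3 receptor gene Itpr3 was dim, at 0.85 ± 0.97, and ran from 0.10 without knockout replicate 2 to 1.75 without knockout replicate 1.

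Diacylglycerol kinases end the lipid signal by phosphorylating diacylglycerol. Of 10 listed genes 4 were measured, 2 of them higher. Dgka, the alpha isoform, read 996, 736 and 545 in knockout and 1211, 880 and 1024 in wild type, a difference of -0.47 ± 0.28 (limma adjusted p = 0.729). Without knockout replicate 3 it was -0.26, and without knockout replicate 1 it was -0.69. Dgkz, the zeta isoform, was at 0.069 ± 0.12 by its brightest probe set. Its other probe set, 1426738_at, read 374, 184 and 256.3 in knockout and 510, 407 and 540 in wild type. Those groups did not overlap, and the difference of -0.85 ± 0.43 did not pass (limma adjusted p = 0.683).

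Newly made protein kinase C is matured by the kinase PDK1 and by mTOR complex 2, and switched off by PHLPP phosphatases. Of 11 measured genes of this group 0 passed and 5 were higher, with a median of -0.0029. Pdpk1, which encodes PDK1, was at -0.16 ± 0.11 by its brightest probe set (limma adjusted p = 0.774), and its other probe set was at 0.069. Rictor, the defining subunit of mTOR complex 2, was dim and at 1.16 ± 0.81, or 0.22 without wild-type replicate 2, which read 15.3.

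The smallest p in the pathway belonged to Pebp1, the Raf kinase inhibitor protein, which protein kinase C phosphorylates. Probe set 1438649_x_at read 85041, 86387 and 94080 in knockout and 63979, 52667 and 52579 in wild type. All knockout arrays exceeded all wild-type arrays, and the log2 difference of 0.65 ± 0.11 (SE, n = 3 per group) missed the threshold over all probe sets (limma adjusted p = 0.0543). It passed when only the upper 60% of probe sets by mean signal were tested (adjusted p = 0.0198) or the upper 40% (adjusted p = 0.0169). With each array left out the difference ran from 0.61 to 0.75 and did not pass (smallest limma adjusted p = 0.0739). Without the intensity trend no probe set of the arrays passed (smallest limma adjusted p = 0.111). The second probe set, 1415950_a_at, read 34106, 35025 and 42687 in knockout and 31283, 24575 and 27845 in wild type, at 0.42 ± 0.12 (limma adjusted p = 0.314).

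Other anchors and substrates gave 11 of 17 measured genes higher, Pebp1 included. Ptpn11, the phosphatase SHP2, was at 0.28 ± 0.12 by its brightest probe set (unadjusted p = 0.0362, limma adjusted p = 0.587). The other Ptpn11 probe sets were at -0.34 and 0.045. Marcks, the classical protein kinase C substrate at the plasma membrane, was at 0.13 ± 0.16 by its brightest probe set (limma adjusted p = 0.873). Its 5 other probe sets ran from -0.40 to 0.055, the lowest of them, 1456700_x_at, without overlap of the groups and with an unadjusted p of 0.0346 (limma adjusted p = 0.584).

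Partners of the atypical enzymes were all measured (13 of 13), with 8 higher and a median of 0.025. Llgl2, a polarity protein that atypical protein kinase C phosphorylates, read 1584, 997 and 1172 in knockout and 1543, 1534 and 2008 in wild type, at -0.45 ± 0.21 (limma adjusted p = 0.651), or -0.30 without knockout replicate 2. Pard6b, an adaptor that binds atypical protein kinase C, read 693, 660 and 545 in knockout and 504, 340 and 345 in wild type. These groups did not overlap, but the difference of 0.67 ± 0.34 did not pass (limma adjusted p = 0.685), and its other probe set was at 0.16. The scaffold Sqstm1 was at 0.012 ± 0.08.

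**Figure D4:**
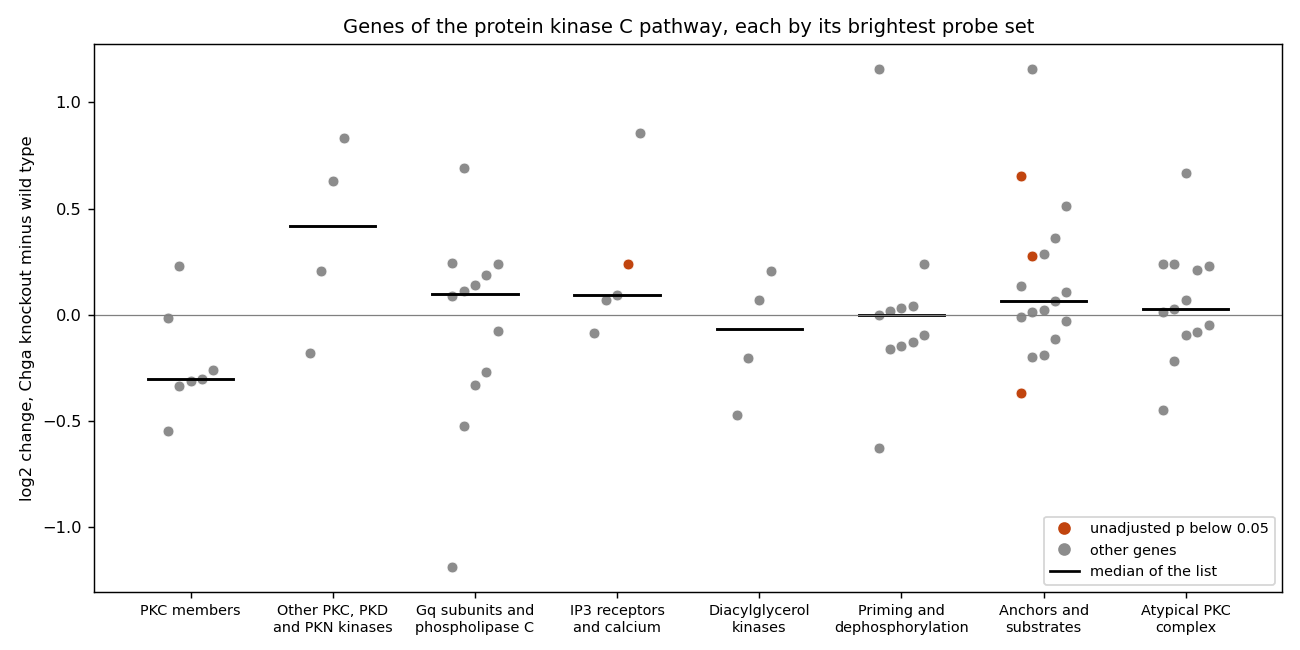
Log2 difference of each measured gene by its brightest probe set, for the 7 protein kinase C genes and the 7 pathway lists, with a bar at each median. Coloured points are the 4 genes with an unadjusted p below 0.05: Pebp1, Ptpn11 and Add1 among anchors and substrates, and Atp2a2 among calcium genes.

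For each kinase, the gene with the most similar pattern over the 6 arrays was sought among 8047 genes in the upper 60% by mean signal. The measure was the root mean square difference between log2 values, each centred on its own mean. Prkce 1452878_at lay nearest to Tom1, an endosomal sorting protein, with a difference of 0.048 where the median gene was at 0.30. Prkci 1417410_s_at lay nearest to the carrier membrane protein gene Scamp1 (0.051) and Prkcz 1418085_at to Sat1, a polyamine acetyltransferase (0.055). Prkcd lay nearest to the F-box gene Fbxo45 (0.072), Prkcb to the zinc finger gene Zfp703 (0.11), Prkca to the endocytic adaptor gene Epn2 (0.11) and Prkch to the Wnt pathway gene Dvl3 (0.17). These genes were picked for their likeness on the same arrays, so their values add no test.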

How the data were processed

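The members and the gene lists were chosen with earlier results of these data known. Per the submitters' processing notes, the authors processed the Affymetrix arrays with GCOS 1.2; the deposited values are linear intensities per probe set, already scaled (mean after trimming 2% at each end, 2501.3 to 2501.4 on every array), by a rule that the sources used here do not state. Detection calls were not used here. After removing 64 control probe sets, 22626 were kept: 20380 with 1 gene in the platform annotation, 691 with several and 1555 with none. Symbols were updated through RefSeq (GRCm38.p6).

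In R 4.3.3, limma 3.58.1 was fitted to log2(intensity + 16) (lmFit, then eBayes with a trend on mean signal), all 6 arrays together without covariates. Benjamini-Hochberg adjustment ran over all 22626 probe sets, and the procedure was tested on simulated data. Errors are standard errors of the fit. The number of arrays limits precision.

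Named were all probe sets of the 7 genes, from each pathway list the genes past the threshold or else the 2 with the smallest p, and the most similar gene of each kinase. Gna11, Marcks, Sqstm1, Add1, the marker genes, and probe sets other than the brightest of pathway genes, were named after their values were seen. Alternatives were pseudocounts of 1, 64 and 16 times the one used, quantile normalization, median centring, signal filters, no trend, array weights, a replicate block, gene means, and each array left out.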

Additional observations from a re-analysis of the deposited data

How the results depend on the processing

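No protein kinase C probe set passed under any alternative run (179 refits of single probe sets and 5 of gene means, smallest limma adjusted p = 0.512, for Prkci 1448695_at without knockout replicate 1). At an unadjusted p below 0.05 the count ranged from 0 to 1 with each array left out, that 1 being Prkci 1448695_at, without wild-type replicate 1 (-1.59) or knockout replicate 1 (-1.52). The number of lower probe sets was 9 to 11 of 12 with an array left out, 6 of 8 in the upper 60% and 3 of 3 in the upper 40% by signal; the 4 and 9 others had no value there. The sign turned for 3 of the 12 probe sets and for Dgkz. With each array left out, Prkca 1450945_at ranged from -0.18 to 0.29, Prkcb 1460419_a_at from -0.083 to 0.42, Prkcz 1449692_at from -0.29 to 0.23 and Dgkz from -0.025 to 0.13, and the gene mean of Prkcb was -0.36.

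Over all probe sets 42 passed, 17 higher and 25 lower. The count was 24 with a pseudocount 16 times as large, 70 in the upper 40%, 0 of 22626 by limma without the intensity trend (1507 at an unadjusted p below 0.05), and 14 to 40 with an array left out (14 without wild-type replicate 1, 15 without wild-type replicate 3, 23 without knockout replicate 2). Fewer probe sets (9051) were tested in the upper 40%; otherwise the cause was not tested. With the replicate number as a block it was 30, and 0 protein kinase C probe sets passed. Same-numbered arrays did not deviate together (correlations of 0.011, 0.00062 and -0.024). This cannot exclude a shared batch or day, since such deviations also hold the noise of single readings.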

Other observations

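Protein kinase C activates the protein kinase D enzymes. Of their genes, Prkd2 and Prkd3 were read by several probe sets each, and the following were singled out after their values were seen. Prkd1 had 1 probe set, at 0.63 ± 0.56, above background in 1 of 3 knockout and 0 of 3 wild-type arrays. Prkd3 probe set 1420567_at read 2449, 2189 and 2013 in knockout and 3207, 4962 and 3075 in wild type. The groups did not overlap, and the log2 difference was -0.72 ± 0.18 (SE, n = 3 per group, unadjusted p = 0.00251, limma adjusted p = 0.231). The 2 other Prkd3 probe sets were at -0.26 and -0.18.

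Prkd2 probe set 1434334_at was higher in knockout, at 215, 231 and 208 against 37.1, 176 and 36.9 in wild type (1.52 ± 0.66, limma adjusted p = 0.610). Probe set 1436589_x_at of the same gene read 318, 473 and 308 in knockout and 62.6, 337 and 73.2 in wild type (1.47 ± 0.66, limma adjusted p = 0.622). For both, wild-type replicate 2 stood apart from the other wild-type arrays and was the only one of them above background. The 3 other Prkd2 probe sets ranged from -0.20 to 0.43.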
